A study of Homo sapiens with 6 samples.

Results

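The transcription factors that sit in the membrane of the endoplasmic reticulum (ER), their partner XBP1 and the proteases that release them were examined as 10 genes, chosen by gene name from the 58735 genes of a count table. They were the CREB3 family (CREB3, CREB3L1, CREB3L2, CREB3L3 and CREB3L4), ATF6, ATF6B, XBP1, and the proteases MBTPS1 and MBTPS2. The libraries came from HepaRG, an established human liver progenitor cell line that forms hepatocyte-like and biliary-like cells. All cells had been differentiated in 1.8% DMSO, had received siRNA for 48 h, and had then spent 24 h in oleic acid (800 µM) with palmitic acid (400 µM). The siRNAs of the study were aimed at the transcription factor STAT3 and at PTPRD, a receptor tyrosine phosphatase. There were 3 libraries labelled PTPF and 3 labelled STATF, abbreviations given without their meaning. Control siRNA is mentioned as well, but no library of it was analysed here, so every difference below is between these 2 labels in fatty-acid-loaded cells. No label ties a replicate to its own culture. The p-values therefore rest on library-to-library spread, and that may be technical.

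Secretory cells such as hepatocytes monitor protein folding in the ER with the unfolded protein response. ATF6, ATF6B and the CREB3 family are made as membrane-anchored precursors. When they move to the Golgi they are cut first by the site-1 protease (MBTPS1) and then within the membrane by the site-2 protease (MBTPS2), and the freed basic leucine zipper (bZIP) part enters the nucleus. XBP1 has no membrane anchor and is switched on through its mRNA, from which the ER sensor IRE1 (ERN1) cuts a short stretch. CREB3L3, also called CREBH, is the member known for the liver, where it acts on lipid, glucose, iron and acute-phase genes. Cutting and splicing are not visible in gene counts, so the values below are transcript levels and say nothing of active factor.

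The stretch that is cut from XBP1 mRNA is shown because all XBP1 counts below add its forms together. GENCODE 29 lists 7 XBP1 transcripts, and 2 of them lack 26 bases that XBP1-201 holds. That number leaves 2 after division by 3, so the reading frame changes. The lines below give the XBP1-201 sequence around the gap of each transcript, 5′ to 3′, with the missing bases in capitals (GRCh38, minus strand, chr22:28796124-28796149 for XBP1-207 and chr22:28796122-28796147 for XBP1-202). The annotation places the gap differently by a shift along a repeat, and both transcripts read the same across it.
XBP1-207: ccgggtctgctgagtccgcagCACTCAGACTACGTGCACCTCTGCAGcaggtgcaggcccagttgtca
XBP1-202: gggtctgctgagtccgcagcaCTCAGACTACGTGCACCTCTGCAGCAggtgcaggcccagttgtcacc

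Promoters are shown for XBP1 and CREB3L2, which held a rarer searched element, and for CREB3L3, whose level differed most among the genes tested. All 10 genes matched the RefSeq promoter table (GRCh38.p14, 250 bases before to 50 after each start), with 12 windows. The ER stress response element (ERSE), which ATF6 and XBP1 bind, was searched on both strands as CCAAT followed by CCACG at a distance of 9 bases. It occurred in 1 of the 12 windows, beginning 52 bases before a start of XBP1, and in 27 of all 35116 promoters (0.0769%). The window at another XBP1 start (chr22:28800028-28800327) did not hold it. Its parts alone are common, CCACG being in 38.1% and CCAAT in 34.6% of promoters, and every ERSE contains both. The cyclic AMP response element TGACGTCA stood in 1 of the 12 windows, 179 bases before a start of CREB3L2, and in 1.85% of all promoters. The window at another CREB3L2 start (chr7:137932939-137933238) did not hold it. TGACGTGG, bound by XBP1 and ATF6 (0.729% of promoters), and the STAT-type element TTCNNNGAA (7.66%) were in none of the 12 windows, which says only that these letters are not there. The CREB3L3 window held a CCAAT 65 bases before the start and no ERSE. Capitals mark the ERSE in the XBP1 line and the cyclic AMP response element in the CREB3L2 line, at chr22:28800520-28800819 (minus strand), chr7:138002037-138002336 (minus strand) and chr19:4153381-4153680 (plus strand) for XBP1, CREB3L2 and CREB3L3.
XBP1: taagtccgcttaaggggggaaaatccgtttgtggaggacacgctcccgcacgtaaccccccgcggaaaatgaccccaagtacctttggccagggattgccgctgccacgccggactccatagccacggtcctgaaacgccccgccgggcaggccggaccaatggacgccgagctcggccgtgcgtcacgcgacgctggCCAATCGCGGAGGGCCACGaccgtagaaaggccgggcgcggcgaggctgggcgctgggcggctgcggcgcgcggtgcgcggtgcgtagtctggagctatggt
CREB3L2: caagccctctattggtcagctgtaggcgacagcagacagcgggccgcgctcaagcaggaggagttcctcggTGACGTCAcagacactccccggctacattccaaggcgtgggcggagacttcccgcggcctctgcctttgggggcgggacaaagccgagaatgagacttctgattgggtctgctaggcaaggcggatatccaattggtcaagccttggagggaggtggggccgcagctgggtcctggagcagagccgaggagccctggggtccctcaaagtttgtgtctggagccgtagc
CREB3L3: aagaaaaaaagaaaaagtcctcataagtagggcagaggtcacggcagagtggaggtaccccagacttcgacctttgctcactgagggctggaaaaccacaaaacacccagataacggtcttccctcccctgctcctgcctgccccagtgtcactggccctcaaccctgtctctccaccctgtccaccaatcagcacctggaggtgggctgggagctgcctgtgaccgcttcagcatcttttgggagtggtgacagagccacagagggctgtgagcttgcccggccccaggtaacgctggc

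Gene counts totalled 33225627 to 40796767 per library. STAT3 served as a check of the labels and stood at 436, 437 and 457 CPM (counts relative to library size, scaled by TMM) in the PTPF libraries and at 114, 132 and 113 in the STATF libraries, while PTPRD stood at 11.5 ± 1.37 and 11.5 ± 0.603 CPM (SD, n = 3 each; edgeR adjusted p = 0.999), so directions are given by label alone. Mitochondrial transcripts made up 17.6% to 18.5% of counts in PTPF and 18.7% to 19.5% in STATF libraries. Of 10 hepatocyte markers, all tested, 2 were higher and 4 lower in PTPF libraries, where 10.1% of all genes tested were higher and 11.6% lower, and their summed level was 42230 to 49022 against 40037 to 40930 CPM. Of 8 biliary and progenitor markers, with EPCAM at 0 counts throughout, 5 were tested, 1 was higher and 2 lower, at a sum of 299 to 334 against 287 to 304 CPM. Of 7 mesenchymal markers 4 were tested and 1 was lower, at a sum of 30.9 to 32.1 against 38.2 to 39.5 CPM, with COL1A2 at 0 in all STATF libraries. Median log2 fold changes, PTPF over STATF, of the tested markers were -0.13 (hepatocyte), -0.40 (biliary and progenitor) and -0.27 (mesenchymal). A sum follows its most abundant markers and need not share the direction of the median. The part of these cell-type and mitochondrial differences in the results below was not tested, and in bulk RNA fewer cells of a type and less RNA per cell cannot be told apart.

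Of the 10 genes, 9 passed the filter on low counts, and 5 of these differed between the groups at an adjusted p of 0.05 in edgeR's quasi-likelihood test, where 21.6% of all 17844 genes tested did. CREB3L3, CREB3L4, CREB3L2 and XBP1 were higher in PTPF libraries (background 10.1% of genes tested), and ATF6 was lower (background 11.6%). CREB3, ATF6B and both proteases did not pass. Over the 9 genes the log2 fold change, PTPF over STATF, ran from -0.20 to 0.93 with a median of 0.05, against a median of 0.00 over all genes tested. The groups did not overlap in 6 of the 9, where that held for 35.7% of all genes tested. With library totals in place of TMM the higher share of all calls went from 46.6% to 28.1% and the median of all genes to -0.06, and the same 4 genes were higher and ATF6 lower.

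**Figure D1:**
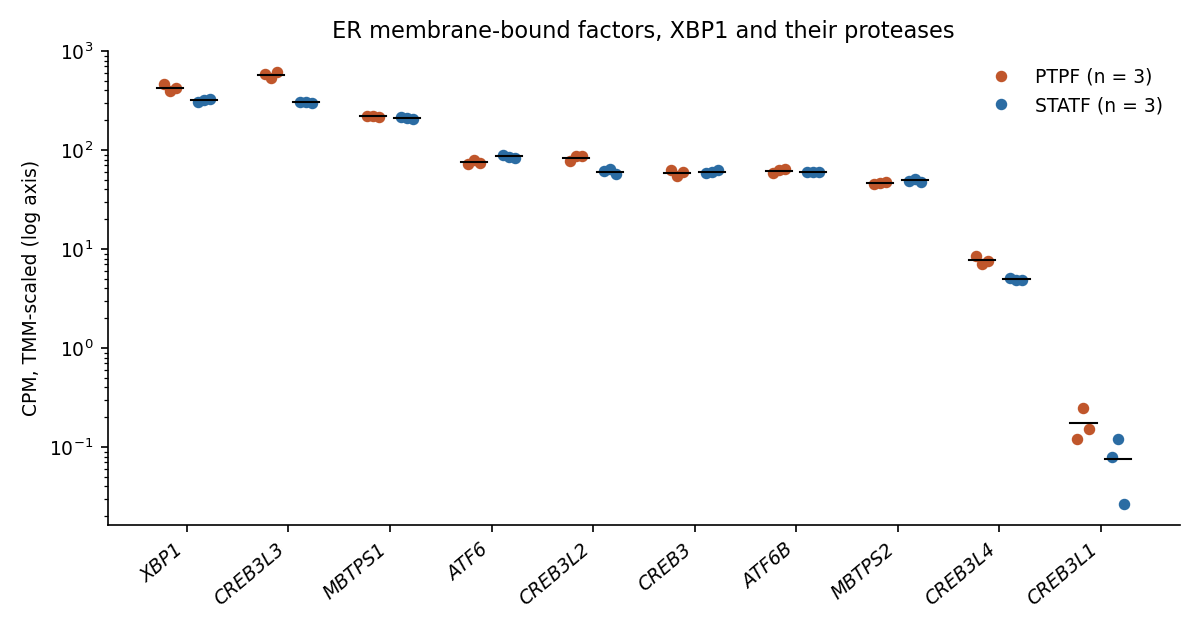
TMM-scaled CPM (log axis) of the 10 genes in each library, orange for PTPF and blue for STATF (n = 3 each), with a line at each group mean. CREB3L3 and XBP1 stand highest, CREB3L4 lies between 4.86 and 8.47 CPM, and CREB3L1 is near the limit of detection.

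CREB3L3 showed the widest difference among the 9 genes tested. It stood at 579, 539 and 609 CPM in the PTPF libraries and at 305, 305 and 299 CPM in the STATF libraries. Every PTPF library lay far above every STATF library, and the STATF values were nearly equal to one another. The level was 1.90-fold higher in PTPF, a log2 fold change of 0.93 (SE 0.0586, 95% interval 0.81 to 1.05, edgeR adjusted p = 2.16e-12). Only 3.23% of all genes tested had a larger absolute change. The gene lies on chromosome 19 from 4153601 to 4173054 of GRCh38 on the plus strand, and shares no exon base with another annotated gene.

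CREB3L2, a widely expressed factor known for collagen secretion in cartilage and for genes of ER-to-Golgi transport, was also higher. Its levels were 77.6, 87.6 and 86.7 CPM in PTPF and 61.1, 63.7 and 56.6 CPM in STATF libraries. The groups were apart, and the lowest PTPF value came from replicate 1. On the log2 scale the difference was 0.47 (SE 0.0609, 95% interval 0.35 to 0.60, edgeR adjusted p = 1.13e-06), or 1.39-fold. CREB3L2 is the member with the cyclic AMP response element shown above, and it lies on chromosome 7 from 137874979 to 138002067 on the minus strand.

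CREB3L4, a member best known from prostate and testis, was present at a low level. It stood at 8.47, 7.03 and 7.54 CPM in PTPF and at 5.12, 4.92 and 4.86 CPM in STATF libraries, on 182 to 279 counts each. No STATF library reached a PTPF library. The log2 fold change of 0.63 (SE 0.117, 95% interval 0.39 to 0.87, edgeR adjusted p = 0.000209) has the widest interval of the 9 genes. Exon bases shared with JTB and SLC39A1 on the opposite strand make up 12.9% of the gene (chromosome 1, 153967534 to 153974363), and the strand setting of the counting is not given.

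CREB3, or Luman, the founder of the family, had levels that mixed between the groups. The values were 63.0, 54.9 and 59.3 CPM in PTPF and 59.2, 59.6 and 62.2 CPM in STATF libraries. The log2 fold change was -0.03 (95% interval -0.15 to 0.09, edgeR adjusted p = 0.788), and it was 0.03 without PTPF replicate 2. CREB3 lies on chromosome 9 from 35732335 to 35737004, with 10.5% of its exon bases shared with GBA2 and TLN1 on the opposite strand. CREB3L1, or OASIS, known from bone-forming cells and astrocytes, was hardly detected and missed the filter. It had 4, 9 and 5 counts in PTPF and 3, 5 and 1 in STATF libraries. The depth-adjusted ratio of the 18 to the 9 counts was 2.28 with an exact 95% counting interval from 0.972 to 5.76, which includes 1, so no difference was detectable at this depth.

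**Figure D2:**
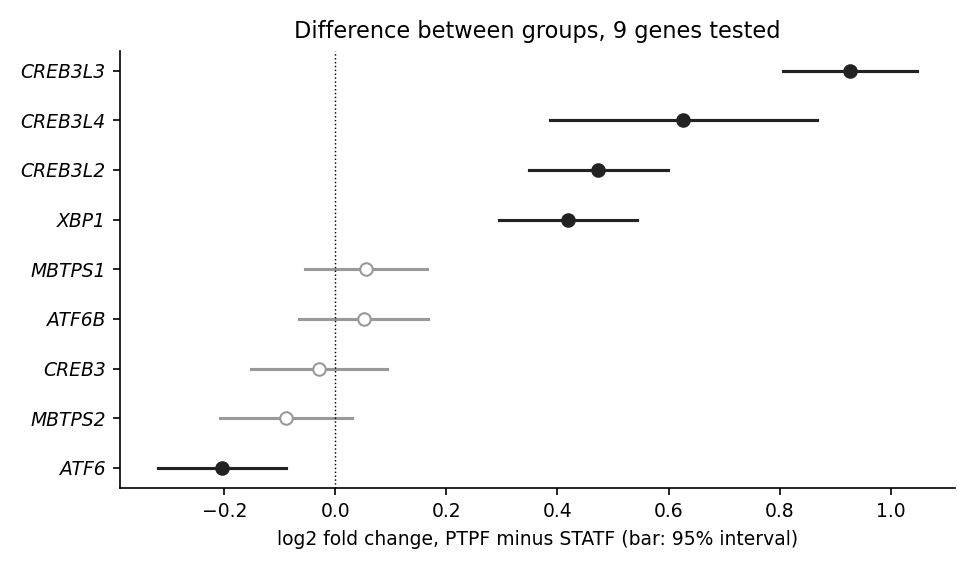
Log2 fold change, PTPF minus STATF, of the 9 genes tested, with 95% intervals. Filled points passed an adjusted p of 0.05 in edgeR and open points did not. CREB3L3 is farthest to the right at 0.93, and ATF6 alone among the filled points lies left of 0, at -0.20.

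Levels were compared between genes per length, in TPM computed from the counts and the deposited gene length, within each group because TPM was not scaled between libraries by TMM. In STATF libraries the order of mean levels was CREB3L3 (289.7 ± 8.19 TPM), XBP1 (269.7 ± 4.86), CREB3 (81.1 ± 0.857), MBTPS1 (52.7 ± 2.39), ATF6B (42.3 ± 0.626), ATF6 (28.1 ± 1.57), CREB3L2 (17.6 ± 1.28), MBTPS2 (14.2 ± 0.68), CREB3L4 (4.38 ± 0.199) and CREB3L1 (0.0482 ± 0.03; SD, n = 3). In these libraries no neighbours in the order overlapped: CREB3L3 at 281 to 297 TPM was just above XBP1 at 264 to 274 TPM. In PTPF libraries CREB3L3 at 504 to 568 TPM stood well clear of XBP1 at 328 to 358 TPM. CREB3L2 (23.5 ± 2.30 TPM) and ATF6 (23.4 ± 1.66 TPM; SD, n = 3) could not be ordered there, their ranges being 20.8 to 25.0 and 21.7 to 25.0 TPM. The deposited length counts every annotated exon base, so genes with long, rarely used exons are given a lower TPM.

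CREB3L3 made up most of the CREB3 family's transcripts in both groups. Its share of the summed TPM was 82.8%, 83.0% and 83.9% in PTPF and 74.1%, 73.9% and 73.3% in STATF libraries. The share of CREB3 was 12.7%, 11.9% and 11.5% against 20.2%, 20.3% and 21.4%. For both genes the groups did not overlap, the share of CREB3L3 being larger and that of CREB3 smaller in PTPF libraries. These are not separate results, because a larger share of 1 gene lowers those of the others. The level of CREB3 itself did not pass (log2 fold change -0.03, edgeR adjusted p = 0.788). CREB3L2 made up 3.71% ± 0.37 of the sum in PTPF and 4.48% ± 0.24 in STATF libraries (SD, n = 3 each), so its share was smaller where its own level was higher. CREB3L4 stayed near 1% of the sum, at 1.02% ± 0.08 and 1.12% ± 0.03 (SD, n = 3 each).

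**Figure D3:**
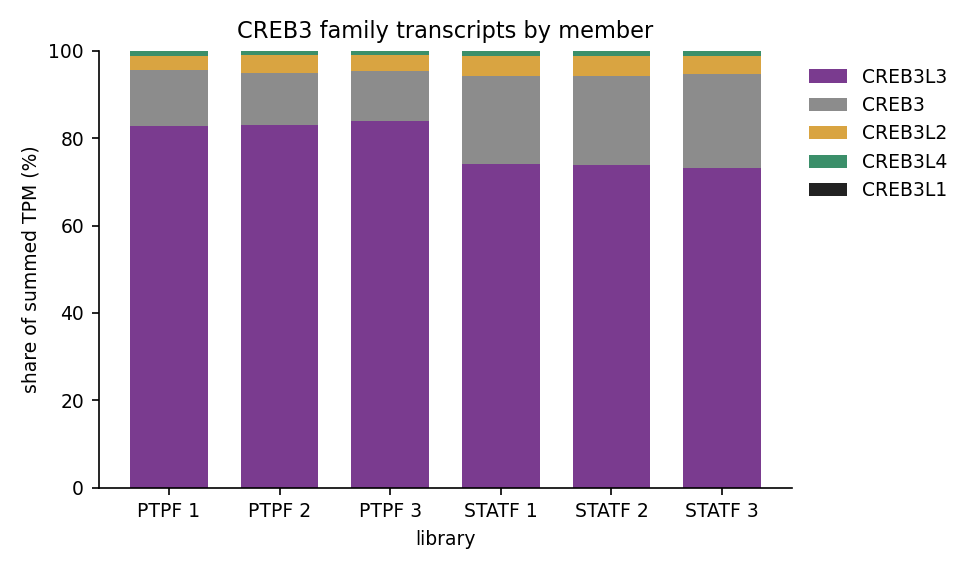
Share of each CREB3 family gene in the family's summed TPM (stacked to 100%) in the 6 libraries. CREB3L3 takes 82.8% to 83.9% in PTPF and 73.3% to 74.1% in STATF libraries, and CREB3L1 is too rare to be seen.

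ATF6, the classical ER stress sensor that releases an activator of chaperone genes, was the 1 called gene that was lower. It stood at 72.6, 78.8 and 73.9 CPM in PTPF and at 90.0, 86.0 and 83.7 CPM in STATF libraries. The highest PTPF library remained below the lowest STATF library. The log2 fold change was -0.20 (SE 0.056, 95% interval -0.32 to -0.09, edgeR adjusted p = 0.00863), or 0.868-fold, and 41.1% of genes tested changed by more. Without STATF replicate 1, the library with the highest value, it was -0.18 with an edgeR adjusted p of 0.0705. ATF6 lies on chromosome 1 from 161766294 to 161964070 on the plus strand, with no shared exon base.

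ATF6B, a paralogue with weaker activating power, did not pass. Its levels were 58.7, 62.7 and 64.7 CPM in PTPF and 59.7, 59.8 and 60.2 CPM in STATF libraries. The PTPF values spread around the narrow STATF range. Its log2 fold change was 0.05 (95% interval -0.07 to 0.17, edgeR adjusted p = 0.591), and it was -0.01 with library totals as scaling. The gene lies on chromosome 6 from 32115264 to 32128253 and shares 9.92% of its exon bases with other genes on the same strand, among them TNXB.

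XBP1, the most abundant factor of the set beside CREB3L3, was higher in PTPF libraries. It stood at 459.5, 397 and 423 CPM in PTPF and at 307, 320.0 and 330.2 CPM in STATF libraries. The groups were apart by more than the spread within either. On the log2 scale the difference was 0.42 (SE 0.0604, 95% interval 0.29 to 0.54, edgeR adjusted p = 6.89e-06), or 1.34-fold. These counts, 11511 to 15144 per library, pool the unspliced form and the form that lacks the 26 bases shown above. XBP1 lies on chromosome 22 from 28794555 to 28800597 on the minus strand and shares no exon base with another gene.

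The proteases that cut ATF6 and the CREB3 family did not pass the test. MBTPS1 stood at 220.0, 221 and 216 CPM in PTPF and at 217, 209.6 and 206 CPM in STATF libraries. These ranges overlapped, and the log2 fold change was 0.05 (95% interval -0.06 to 0.16, edgeR adjusted p = 0.536). MBTPS2 stood at 45.7, 46.1 and 47.7 CPM in PTPF and at 49.2, 51.4 and 47.8 CPM in STATF libraries. Its PTPF values were all lower, by a margin that came down to 47.7 against 47.8 CPM. Its log2 fold change was -0.09 (95% interval -0.21 to 0.03, edgeR adjusted p = 0.312). The interval of MBTPS1 leaves room for changes of up to 0.16 and that of MBTPS2 for falls of up to -0.21 on the log2 scale. MBTPS1 lies on chromosome 16 from 84053761 to 84116906 and MBTPS2 on chromosome X from 21839636 to 21885424, where 13.4% of its exon bases are shared with other genes on the same strand, among them YY2.

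Ratios of counts within a library compare pairs of these genes free of any scaling between libraries. There were 9.20, 9.81 and 10.3 CREB3L3 counts per CREB3 count in PTPF and 5.15, 5.11 and 4.82 in STATF libraries, a difference of 0.96 in the mean log2 ratio. The ratio of CREB3L3 to CREB3L2 differed by 0.45 and that to CREB3L4 by 0.30 on the log2 scale, so CREB3L3 was higher in PTPF libraries also relative to the family members that were higher themselves. XBP1 gave 6.33, 5.03 and 5.72 counts per ATF6 count in PTPF against 3.41, 3.72 and 3.95 in STATF libraries, a log2 difference of 0.62. ATF6 gave 1.24, 1.26 and 1.14 counts per ATF6B count in PTPF against 1.51, 1.44 and 1.39, a log2 difference of -0.25. The ratio of MBTPS1 to MBTPS2 was 4.81, 4.79 and 4.52 against 4.41, 4.08 and 4.31, a log2 difference of 0.14. All 6 ratios had groups that did not overlap. The share of all gene pairs for which that holds was not computed, and single genes did so in 35.7% of all genes tested. The pairs were chosen with earlier results of these data known. Each gave a two-sided exact permutation p of 0.1 (n = 3 each; 0.1 after adjustment over the 6 pairs), the smallest that 3 against 3 libraries allow, so none could pass 0.05.

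Genes around these factors were counted in lists of known targets and regulators. Of 13 ER chaperone and quality-control genes known as ATF6 targets, 12 were tested, 11 were higher in PTPF libraries and none was lower, where 10.1% of all genes tested were higher and 11.6% lower. ATF6 itself was lower, as given above. Their median log2 fold change was 0.33, against 0.00 over all genes tested. CRELD2, an ER resident protein, had 133 ± 14.6 CPM in PTPF and 84.3 ± 1.55 CPM in STATF libraries (SD, n = 3 each). The disulfide isomerase PDIA4 (log2 fold change 0.45), the chaperone HYOU1 (0.41) and the secreted ER stress factor MANF (0.47) were higher too. Without 1 library at a time 9 to 11 of the list passed. The call of the chaperone HSPA5 (0.23) was lost without STATF replicate 1 (edgeR adjusted p = 0.0501) or 3 (0.0603). That of the chaperone CALR (0.20) was lost without any 1 STATF replicate (0.0644 to 0.131) and with library totals (0.0579). SYVN1, the ubiquitin ligase of ER-associated degradation, did not pass (0.11, edgeR adjusted p = 0.191). DERL3 had no count in any library, and 77.0% of its exon bases are shared with SMARCB1. At this depth, finding no count leaves room for 3 counts (0.0735 to 0.0903 CPM).

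Of 19 genes known as XBP1 targets, which serve entry into the ER, transport and disposal, 16 were higher and 1 was lower (all genes tested: 10.1% and 11.6%), and the median change was 0.38 on the log2 scale. DNAJB9, a co-chaperone of the ER, had 178 ± 6.52 CPM in PTPF and 109.9 ± 6.15 CPM in STATF libraries, and SSR1, a subunit of the translocon-associated complex, had 216 ± 4.12 and 137 ± 6.05 CPM (SD, n = 3 each). The COPII coat protein SEC24D (0.48) and EDEM1 (0.43), which directs misfolded glycoproteins to degradation, were higher as well. EDEM2, which trims mannose from such glycoproteins, was lower (-0.18, edgeR adjusted p = 0.0252), and this call ended without PTPF replicate 2 (adjusted p = 0.179) or any 1 STATF replicate (0.0547 to 0.140). Without 1 library at a time 14 to 17 of the 19 genes were called. The calls of PDIA6 (0.20) and DERL2 (0.20) were lost without STATF replicate 1 (edgeR adjusted p = 0.0847 and 0.0959) and with library totals (0.0571 and 0.0988). That of PDIA6 was lost also without STATF replicate 3 (0.0524). The lists of ATF6 and XBP1 targets came from general knowledge of the pathway, with earlier results of these data known, and their genes can answer to either factor.

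Genes known to answer to CREB3L3 in liver went both ways. Of 10, 8 were tested, 2 were higher and 3 were lower (all genes tested: 10.1% and 11.6%), and the median change was -0.22 on the log2 scale. The acute-phase pentraxins CRP (111 ± 18.5 against 25.8 ± 2.84 CPM) and APCS (48.4 ± 8.85 against 18.1 ± 2.08 CPM) were higher (SD, n = 3 each). The lipid droplet protein CIDEC (94.0 ± 8.84 against 119.8 ± 4.87 CPM) and the glucose-6-phosphatase G6PC (5.15 ± 1.58 against 24.8 ± 3.92 CPM) were lower (SD, n = 3 each). The metabolic hormone FGF21, named after its value was seen, was lower as well, at 1.45 ± 0.43 against 2.45 ± 0.0344 CPM (SD, n = 3 each), and its edgeR adjusted p was 0.0503 without PTPF replicate 3. The apolipoproteins APOA4 (0.43) and APOA5 (-0.25) and the gluconeogenic PCK1 (-0.19) did not pass in edgeR. APOA4 passed in limma-voom (adjusted p = 0.00481), APOA5 in limma-voom (0.0444), with library totals (0.0266), with no filter (0.000982) and without PTPF replicate 1 (0.0219), and PCK1 with library totals (0.0143) and with no filter (0.00969). With the replicate block APOA4 (edgeR adjusted p = 6.00e-08), APOA5 (0.00137) and PCK1 (0.00862) passed as well. The list then had 7 calls with limma-voom, with library totals or with no filter, 8 with the replicate block, and 4 to 6 without 1 library. APOC2 had no count in any library, and 55.4% of its exon bases also belong to the readthrough gene APOC4-APOC2. Of 4 nuclear receptors known to act with CREB3L3, 1 passed (25%), close to the 21.6% of all genes tested. This was PPARA, which was lower (-0.22, edgeR adjusted p = 0.0311). Its call ended without PTPF replicate 1 (0.114), STATF replicate 1 (0.0812) or STATF replicate 2 (0.129). HNF4A (-0.14), RXRA (-0.04) and NR3C1 (0.01) did not pass. HNF4A passed with library totals (edgeR adjusted p = 0.00731) and without PTPF replicate 3 (0.0430).

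Of 8 transport and collagen genes known as targets of CREB3L1, CREB3L2 or CREB3, 7 were tested, 4 were higher and none was lower, against 10.1% and 11.6% of all genes tested, and the median was 0.16 on the log2 scale. The receptors that return ER proteins from the Golgi, KDELR2 (312 ± 11.6 against 217 ± 5.36 CPM; SD, n = 3 each) and KDELR3 (0.29), the small GTPase ARF4 (0.38) and the collagen cargo receptor MIA3 (0.16) were the 4. Without STATF replicate 1, 2 of the 4 passed, the calls of KDELR3 (edgeR adjusted p = 0.058) and MIA3 (0.180) being lost. That of KDELR3 was lost also without PTPF replicate 1 (0.0903) and with library totals (0.0511), and that of MIA3 also without PTPF replicate 2 (0.227), STATF replicate 2 (0.0898) or STATF replicate 3 (0.110), with library totals (0.265), with no filter (0.0775) and in limma-voom (0.0581). The transport genes SEC23A (0.08, edgeR adjusted p = 0.327) and SEC31A (0.14, adjusted p = 0.0781) did not pass. SEC31A passed without PTPF replicate 1 (0.00646). The collagen gene COL1A1 had a log2 fold change of -0.30 and did not pass (edgeR adjusted p = 0.107), though it passed narrowly with library totals.

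**Figure D4:**
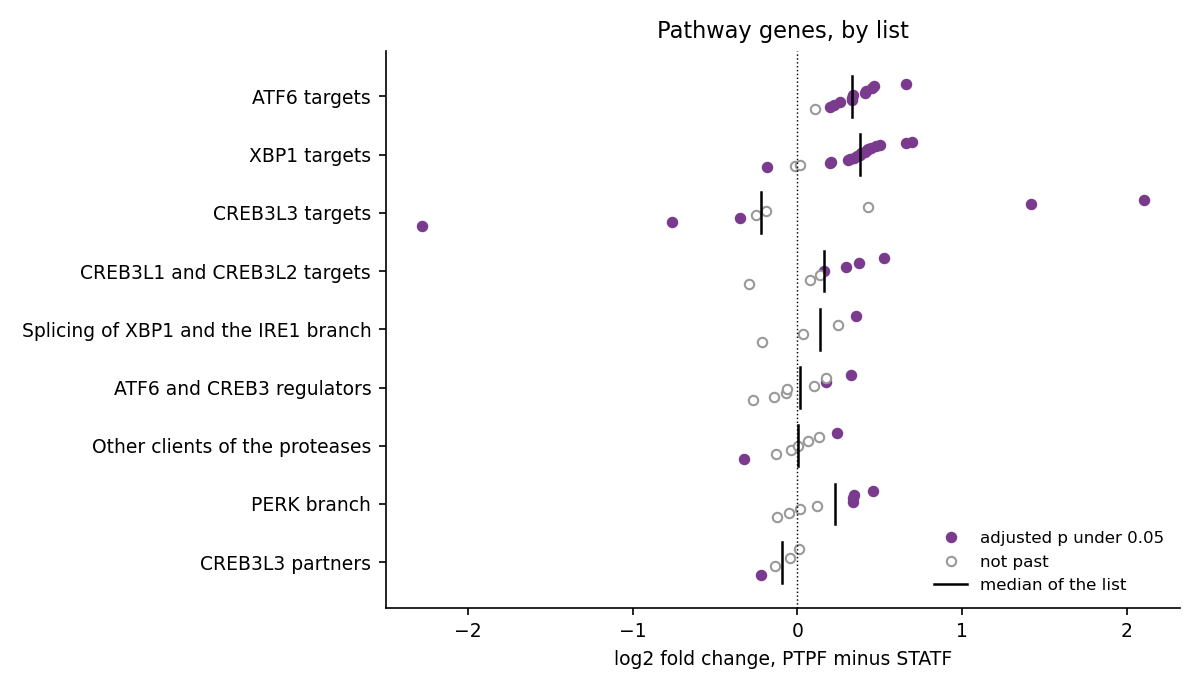
Log2 fold change, PTPF minus STATF, of the tested genes in 9 lists, each point a gene, filled where its edgeR adjusted p was under 0.05, with a bar at the list's median. The ATF6 and XBP1 target lists lie mostly to the right of 0 (medians 0.33 and 0.38), and the CREB3L3 targets spread from -2.28 to 2.10.

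In the machinery that switches these factors on, the shares of genes that passed were close to the 21.6% of all genes tested. ERN1, the kinase and nuclease IRE1 that cuts XBP1 mRNA, was higher, with 46.1 ± 4.72 CPM in PTPF and 36.0 ± 1.55 CPM in STATF libraries (SD, n = 3 each), the 1 call among 4 genes tested of that branch (25%). RTCB, which joins the cut XBP1 mRNA, did not pass (0.03, edgeR adjusted p = 0.763). Of 8 regulators of ATF6 or CREB3, 2 were higher: PDIA5, a disulfide isomerase that helps ATF6 leave the ER (0.32), and NUCB1, a Golgi protein that holds back ATF6 cutting (0.17). The call of NUCB1 was lost without PTPF replicate 3 (adjusted p = 0.116), without any 1 STATF replicate (0.0814 to 0.136), and with library totals (0.124). Of 7 other clients of the proteases and their escort and retention proteins, the ER retention protein INSIG1 was higher (0.24) and GNPTAB, an enzyme that MBTPS1 cuts to make it active, was lower (-0.33). SREBF1 (0.06) and SREBF2 (-0.04), the sterol-regulated factors released by the same proteases, and their escort SCAP (0.00) did not pass. The PERK arm, which uses none of these factors, had 4 of 8 genes higher and none lower (all genes tested: 10.1% and 11.6%), with ATF4 at 279 ± 15.1 against 221 ± 5.99 CPM (SD, n = 3 each), CHAC1 (0.46), the sensor EIF2AK3 (0.34) and DDIT3, or CHOP (0.34). ATF3 (-0.12, edgeR adjusted p = 0.206), ASNS, PPP1R15A and TRIB3 did not pass, and ATF3 was called lower with library totals (0.0451). Without 1 library at a time the log2 fold change of ASNS ran from -0.09 to 0.09. That of PPP1R15A ran from -0.14 to 0.02 and that of TRIB3 from 0.06 to 0.19. Exon bases shared with other genes made up 39.6% of DDIT3, 15.1% of EIF2AK3, 14.3% of PDIA5 and 11.6% of ARF4. They made up 44.6% of ASNS, 43.1% of APOA4, 25.2% of PDIA6 and 10.1% of SYVN1.

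Genes with the most similar pattern over the 6 libraries were sought for CREB3L3 and CREB3L4, the tested genes that differed most, as a description. The libraries form 2 groups, so likeness largely carries the difference between them: of 11765 protein-coding genes whose log2 CPM averaged 1 or more, 558 had a Pearson's r above 0.95 with CREB3L3 and 502 with CREB3L4. The 4 closest to CREB3L3 were WWC1, SLC35C1, TNFAIP2 and STEAP3, with log2 fold changes of 1.14, 0.53, 0.44 and 0.56. The 4 closest to CREB3L4 were CRELD2 (0.66), ACTL8 (0.35), SLC9A3R1 (0.24) and PRPF19 (0.23).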

How the data were processed

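Polyadenylated RNA of 6 HepaRG samples was sequenced. The submitters' processing notes name GRCh38, featureCounts 1.5.0-p3, HISAT2 2.0.5 and CASAVA 1.8. For annotation release, strand setting, multi-mapping reads and filters, the sources used here give nothing. What the authors deposited are raw counts per gene, not normalized, and the gene length in bases as an other unit, which served for TPM. All 58735 gene identifiers are in GENCODE 29, 58724 at the same position, and exon overlaps were computed there without strand. Samples were grouped by title.

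After filterByExpr, TMM factors were 0.953 to 1.03, and the test was edgeR 4.0.16 (glmQLFit, robust, group only; R 4.3.3) over all genes, with Benjamini-Hochberg adjustment at 0.05, and the script was tested on simulated data. SE and intervals came from the F statistic. Ratios used a pseudocount of 0.5 and exact permutation tests (scipy 1.17.1). Counting intervals are exact (Clopper-Pearson), and they and floors cover counting error only, because amplified reads lacking molecular identifiers can repeat a molecule. Libraries within a group differed by more than sampling noise (chi-square over its degrees of freedom 4.30 to 12.1). Named genes were the 10 members, STAT3, PTPRD, up to 4 genes per list with the smallest adjusted p past the threshold (or the 2 most expressed), calls against a list's direction, and the 4 genes most alike for 2 members; other list genes were named after their values were seen. Members, lists and tests were chosen with earlier results of these data known. Alternatives were other scalings and filters, DESeq2 1.42.0, limma-voom (limma 3.58.1), a replicate block, each library left out, no mitochondrial genes and an adjusted p of 0.01.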

Additional observations from a re-analysis of the deposited data

How the results depend on the processing

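Across 15 alternatives for each of the 9 genes tested, 134 of 135 values kept their side of the threshold; the exception was ATF6 without STATF replicate 1 (-0.18; -0.23 to -0.18 over the libraries left out). The 4 higher genes passed in all of them, CREB3L3 between 0.86 and 0.98. Without 1 library at a time the members called were 4 to 5 and all genes called 2830 to 3808. A threshold of 0.01 left 2551 calls of all genes, by construction, 2 of the CREB3L1 and CREB3L2 targets, 1 of the ATF6 and CREB3 regulators and 0 of the CREB3L3 partners. Leaving out 1 library gave 2 to 4 calls among CREB3L1 and CREB3L2 targets, 1 to 2 among genes of XBP1 splicing and the IRE1 branch, 1 to 2 among the regulators and 0 to 2 among CREB3L3 partners. For the IRE1 branch, 2 genes were called with upper-quartile scaling and 2 with the replicate block, all of them higher. Library totals, and leaving out STATF replicate 2, each gave 1 higher and 1 lower. The lower gene was TRAF2 (edgeR adjusted p = 0.0255 and 0.0451). With library totals WFS1, among the regulators, was called lower (edgeR adjusted p = 0.0121), and 2 CREB3L3 partners were called. The cause of these shifts was not tested. The labels do not say whether replicate numbers pair the libraries. Deviations of same-numbered libraries correlated at 0.05, 0.08 and -0.01 across genes, and those of other pairs at -0.10 to 0.05. A shift shared by same-numbered libraries in some genes was not tested. With the replicate block 8 of the CREB3L3 targets were called (3 higher, 5 lower) in place of 5, and 4145 of all genes in place of 3863. Other pseudocounts and left-out libraries turned no ratio of a pair. Depth limits CREB3L1, at 1 to 9 counts, and CREB3L4, at 182 to 279.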

Other observations

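The deposited table marks 48 genes as bZIP factors, 8 of them among the 10 genes of the report. Of the 38 others that were tested, which include ATF4 and DDIT3 of the PERK list, 9 were higher and 7 lower in PTPF libraries, 42.1% against 21.6% of all genes tested. The genes in this paragraph were named after their values were seen, with edgeR adjusted p-values. Higher were NFE2, a factor of blood cells present at a low level (1.76 ± 0.34 against 0.49 ± 0.0393 CPM; SD, n = 3 each), NFIL3, a repressor tied to the circadian clock (51.2 ± 3.86 against 31.9 ± 2.21 CPM; SD, n = 3 each), and JUNB, an AP-1 subunit (231 ± 12.2 against 153 ± 5.17 CPM; SD, n = 3 each). Lower were BATF2 (2.30 ± 0.612 against 13.2 ± 1.18 CPM; SD, n = 3 each), known as induced by interferon, and the clock-output factors HLF (log2 fold change -0.53) and TEF (-0.48), which bind the same element as NFIL3. NFE2L1, which is also made at the ER membrane and is known for proteasome genes, was lower as well, at 339 ± 29.6 against 454 ± 15.9 CPM (SD, n = 3 each; adjusted p = 1.01e-05).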
